A study of Mus musculus with 3 samples.

Results

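The B cells of the mouse liver were described in 3 single-cell RNA libraries, 1 per mouse, from animals given iron in different ways after an iron-deficient diet. Members were chosen from their own RNA: a cell needed at least 4 UMIs (unique molecular identifiers, each standing for 1 captured RNA molecule) and at least 10 per 10000 UMIs of Cd79a, Cd79b, Ms4a1 and Fcmr in sum. It could hold at most 1 UMI of Cd3e, Cd3g, Cd3d and Trac together, under 20 per 10000 of Clec4f, Vsig4 and Cd5l together, and at most 1 UMI of Siglech and Ccr9 together. Of 8087 cells, 732 met the rule, 180 of 3208 cells in IDD+HTF, 459 of 3545 in IDD+HID and 93 of 1334 in IDD. The levels of those genes in the members are therefore given as a description only.

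The animals were wild type, and the study asked how liver cells, above all the sinusoidal endothelium, respond to iron bound to transferrin or not. Each had eaten an iron-deficient chow, at 2 to 6 ppm iron, during 1 week. The IDD+HTF mouse then received 10 mg holo-transferrin, the plasma iron carrier loaded with iron, into the tail vein. Chow holding 2% carbonyl iron was given to the IDD+HID mouse over 18 h, and the IDD mouse had neither and was the control. The labels used here give neither the age of the mice nor the time between injection and harvest. Livers were digested with collagenase and pronase, hepatocytes were separated by slow spins, and 5% of the hepatocyte suspension was added back to 95% of the suspension of other cells, so cell shares reflect this mixing too. With 1 mouse per group no test across animals was possible; no p-value is given, and every 95% interval below covers counting error only.

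B cells recognise antigen through a membrane antibody, made of a heavy and a light chain, that signals through the CD79 pair. Naive follicular B cells carry IgM and IgD on the same cell, circulate between blood and lymphoid organs under the chemokine receptors CCR7 and CXCR5, and present antigen on MHC class II. After activation they can switch to IgG, IgA or IgE and become plasma cells, which lose much of the B cell programme and secrete antibody.

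The libraries held 55478904 UMIs in IDD+HTF, 75404660 in IDD+HID and 34552858 in IDD, and the B cells within them 750308, 2251675 and 414825 in the same order. A B cell had a median of 3667.5 UMIs in IDD+HTF, 4567 in IDD+HID and 4069 in IDD, with median mitochondrial shares of 5.33%, 6.54% and 5.15%. Each pair of libraries shared 1 cell barcode, and no pair shared a barcode among the B cells. The lowest member stood at 11.6 per 10000 in IDD+HTF, 13.6 in IDD+HID and 14.4 in IDD, while the cell nearest below the limit stood at 8.09, 9.81 and 7.54 per 10000. Cells that carried the B cell genes but were barred by the limits on other types numbered 1 in IDD+HTF, 20 in IDD+HID and 1 in IDD; of the 20, 11 exceeded the T cell limit, 7 the Kupffer cell limit and 4 the plasmacytoid limit. B cells with over 10000 UMIs numbered 4, 12 and 2.

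Sequences are shown here for 2 sets of genes that carry results below. Hspa1a and Hspa1b encode inducible HSP70 chaperones, the RNAs furthest apart between the libraries among the heat shock genes. Both genes lie on the minus strand of chromosome 17 (Hspa1a chr17:34969190-34972156, Hspa1b chr17:34956436-34959238, GRCm38), and the 150 bases before their starts (chr17:34972157-34972306 for Hspa1a and chr17:34959239-34959388 for Hspa1b, minus strand, RefSeq, GRCm38.p6) were identical at 149 of 150 positions. Capitals mark the match to the heat shock element half-site pair GAANNTTC, 104 bases before the start.
Hspa1a promoter: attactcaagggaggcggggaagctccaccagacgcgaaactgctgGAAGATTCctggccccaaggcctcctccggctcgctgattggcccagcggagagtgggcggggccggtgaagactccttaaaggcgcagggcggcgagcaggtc
Hspa1b promoter: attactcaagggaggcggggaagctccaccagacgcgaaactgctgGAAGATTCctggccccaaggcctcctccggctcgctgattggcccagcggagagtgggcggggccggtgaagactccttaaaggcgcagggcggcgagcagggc
The motifs GAANNTTC and TTCNNGAA, each its own reverse complement, were found in 12.8% of 32851 promoter windows of 250 bases and in 8 of 14 windows of the heat shock genes. Some of these genes have several windows. Matches were found for Hspd1 and Hspe1, whose RNAs lie close together between the libraries below, and for no window of Dnajb1, whose RNA differs. Such a match is a description of letters and not a bound site.

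The other set is the iron responsive elements, RNA hairpins bound by the iron regulatory proteins IRP1 and IRP2 when cells are short of iron. One in the 5′ UTR blocks translation of the ferritin subunits Fth1 and Ftl1, whereas those in the 3′ UTR protect the RNA of the transferrin receptor Tfrc from decay. A count of RNA can therefore report on the receptor's elements but not on the ferritin block. Capitals mark the CAGTG of the hairpin loop in GENCODE M21 transcripts (GRCm38). The Fth1 element lies in exon 1 at chr19:9982733-9982759 (plus strand), the Ftl1 element in exon 1 at chr7:45459780-45459806 (minus strand), and the 4 Tfrc elements in exon 19 on the plus strand at chr16:32631220-32631246, chr16:32631599-32631625, chr16:32631664-32631690 and chr16:32631711-32631737.
Fth1: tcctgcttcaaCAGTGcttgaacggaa
Ftl1: tcttgcttcaaCAGTGtttgaacggaa
Tfrc site 1: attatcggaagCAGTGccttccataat
Tfrc site 2: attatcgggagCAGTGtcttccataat
Tfrc site 3: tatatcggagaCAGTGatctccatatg
Tfrc site 4: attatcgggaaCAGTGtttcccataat

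B cells made up 5.61% of the cells in IDD+HTF (95% Clopper-Pearson interval 4.84 to 6.46), 12.9% in IDD+HID (11.9 to 14.1) and 6.97% in IDD (5.66 to 8.47). The IDD+HID library thus held the highest share, and the intervals of IDD+HTF and IDD overlapped. The libraries differed in depth, with a median over all cells of 4467 UMIs in IDD+HTF, 8608 in IDD+HID and 3649 in IDD. Of barcodes with at least 1000 UMIs, 4162 of 8888, 4625 of 10900 and 1973 of 6921 also had 300 genes. Shares under other limits on cells are given below. Hepatocytes, which were mixed in by hand, numbered 287 in IDD+HTF, 121 in IDD+HID and 91 in IDD. With them left out of the denominator the shares were 6.16%, 13.4% and 7.48% in the same order. Against T cells, chosen from at least 3 UMIs and 5 per 10000 of the T cell genes with at most 1 UMI of the B cell genes, the libraries lay closer together. B cells were 58.6% of B plus T cells in IDD+HTF (52.9 to 64.2), 65.9% in IDD+HID (62.3 to 69.5) and 55.7% in IDD (47.8 to 63.4), with 127, 237 and 74 T cells. Whether the livers or the suspensions differed cannot be told apart with 1 mouse per group.

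**Figure D1:**
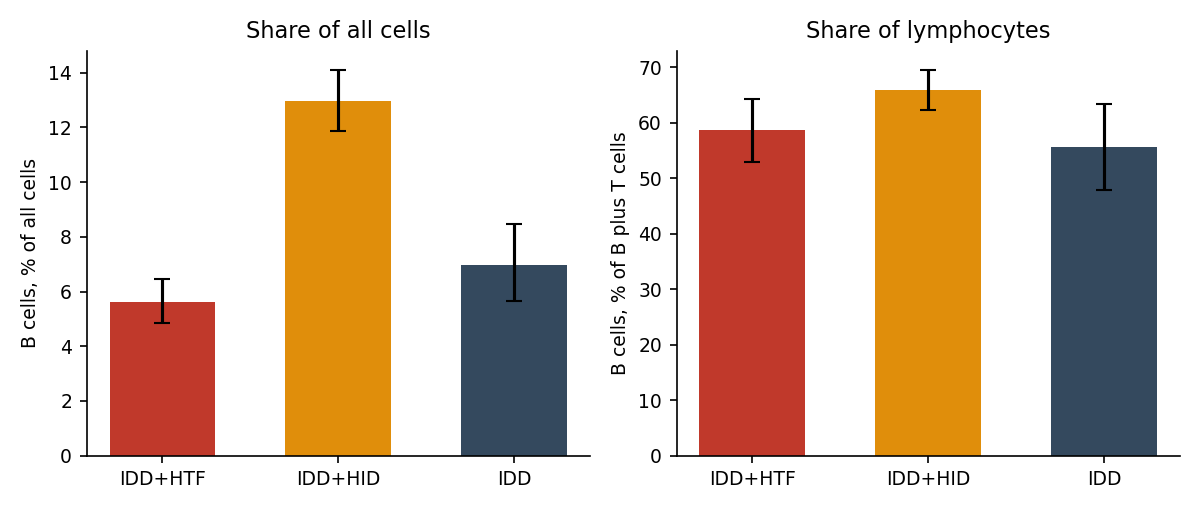
Share of B cells among all cells (left, in percent) and among B plus T cells (right, in percent) in the 3 libraries; bars are the share and whiskers the 95% Clopper-Pearson interval, which covers counting error only. The IDD+HID bar stands at 12.9% of all cells, above 5.61% in IDD+HTF and 6.97% in IDD, while the 3 shares of B plus T cells lie between 55.7% and 65.9%.

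Genes outside the rule were checked against the label. Ighm, the heavy chain of IgM, had a UMI in 99.4% of members in IDD+HTF, 99.8% in IDD+HID and 98.9% in IDD, and Ebf1, a transcription factor that sets B cell identity, in 100%, 99.8% and 98.9%. Ighm with Ighd, the IgD heavy chain, was seen in 88.3% of members in IDD+HTF (82.7 to 92.6), 92.8% in IDD+HID (90.1 to 95.0) and 92.5% in IDD (85.1 to 96.9). Ighd stood at 890 CPM in IDD+HTF, 1154 CPM in IDD+HID and 959 CPM in IDD, where CPM are UMIs per 1000000 UMIs summed over the B cells of a library. In T cells of the same libraries it stood at 0, 4.15 and 0 CPM. The T and NK cell list of 17 genes summed to 25.3 CPM in B cells of IDD+HTF, 47.5 CPM in IDD+HID and 33.7 CPM in IDD, against 13448, 14648 and 12611 CPM in T cells, a gap that the limit on Cd3e, Cd3g, Cd3d and Trac and the choice of the T cells fixed in part. Of the 17 genes, 5 had a UMI in B cells of IDD+HTF, 13 in IDD+HID and 8 in IDD, so genes outside the rule were among them. Cd8a, Nkg7 and Ncr1, which are not in the rule either, had 0 UMIs in B cells of each library.

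The genes of the rule described the same cells. Cd79a, the signalling partner of the membrane antibody, stood at 2367 CPM in IDD+HTF, 3328 CPM in IDD+HID and 2808 CPM in IDD. Its partner Cd79b stood at 1666, 2109 and 1813 CPM, and Ms4a1, the surface protein CD20, at 940, 1196 and 899 CPM, in the same order. Fcmr, the receptor for the IgM tail, stood at 757, 770 and 853 CPM.

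Markers of B cell subsets ranged from common to rare. Fcer2a, the low-affinity IgE receptor CD23 of follicular B cells, had a UMI in 72.8% of members in IDD+HTF, 75.6% in IDD+HID and 72.0% in IDD. Thinned in expectation to 1000 UMIs per cell, which left out 0 members, the shares were 34.6%, 34.5% and 35.8%. Cd5, carried by B1a cells, had a UMI in 2.22%, 1.09% and 3.23% of members. Cd9 and Bhlhe41, which B1 cells and in part marginal zone B cells carry, were seen in 10.6% and 37.8% of members in IDD+HTF, 7.63% and 32.9% in IDD+HID, and 5.38% and 22.6% in IDD. Of the transitional markers, Vpreb3 stood at 203 CPM in IDD+HTF, 321 CPM in IDD+HID and 171 CPM in IDD, and Cd24a at 428, 277 and 456 CPM. IDD+HID was thus the highest library for Vpreb3 and the lowest for Cd24a.

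Switched antibody was almost absent from the members. The rule asks for B cell genes, and plasma cells lose much of that programme, so low plasma cell RNA was in part fixed by the rule. In each library 1 barcode rich in Igha fell under its limit, as given below. Cells with more UMIs of the IgG, IgA and IgE heavy chains than of Ighm and Ighd numbered 1 of 180 in IDD+HTF, 3 of 459 in IDD+HID and 0 of 93 in IDD. A count of 0 among the 93 leaves room for a share up to 3.23% by a floor of 3 counts, and up to 3.89% by the Clopper-Pearson interval. Ighg1 had 0 UMIs in B cells of the 3 libraries, as did Tnfrsf17, the plasma cell survival receptor BCMA. Ighg2b had 4 UMIs in IDD+HTF, 78 in IDD+HID and 0 in IDD, and 42 of the 78 came from 1 cell. Jchain, which joins secreted IgM and IgA, had 2, 3 and 0 UMIs. Variable heavy chain genes were spread over 42 genes in IDD+HTF, 71 in IDD+HID and 18 in IDD, from 70, 297 and 29 UMIs. The most frequent took 7.14%, 7.41% and 13.8% of them, and the 13.8% in IDD was 4 UMIs. The number of genes seen depends on the number of UMIs, so these values do not compare the diversity of the libraries.

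**Figure D2:**
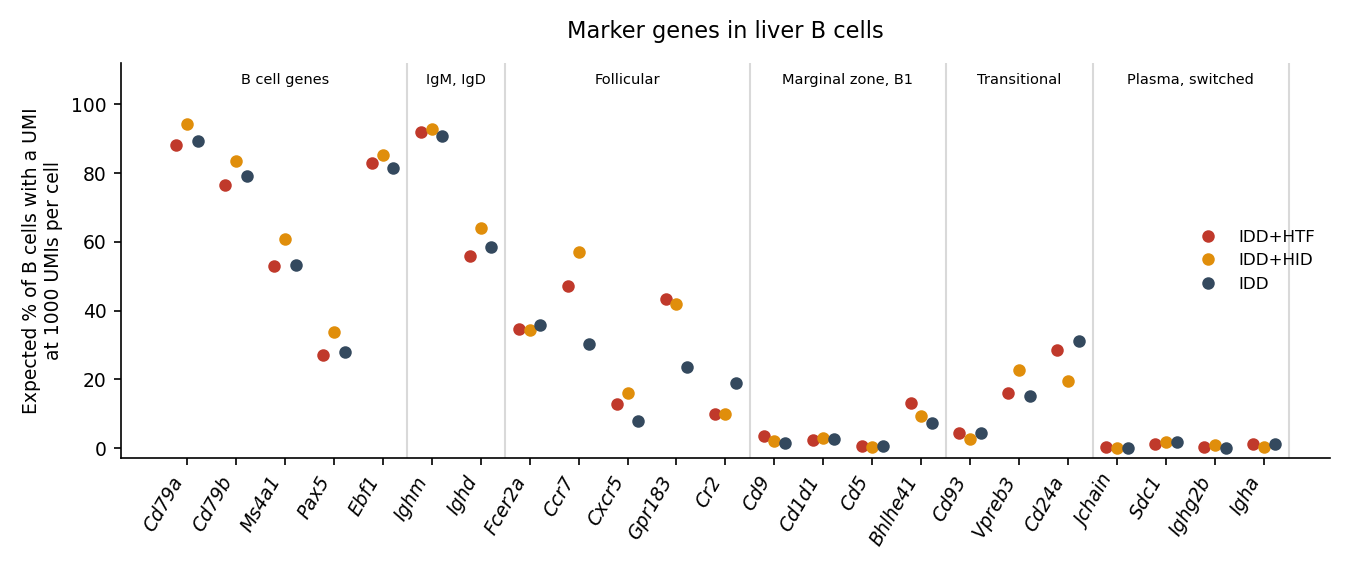
Expected percent of B cells with at least 1 UMI of each marker after thinning to 1000 UMIs per cell (vertical axis), by marker gene and its group (horizontal axis), with 1 point per library. The antibody genes Ighm and Ighd and the B cell genes stand high in the 3 libraries, Fcer2a stands between 34.5% and 35.8%, and Jchain, Ighg2b and Igha lie close to 0.

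Many B cells held RNA of both light chain classes, and how many were called so depended on the call. A cell was called kappa with at least 3 Igkc UMIs and 10 times the UMIs of Iglc1, Iglc2 and Iglc3 together, lambda the other way round, and both where neither led by that factor. The calls were 28 kappa, 7 lambda and 145 both in IDD+HTF, 104 kappa, 18 lambda and 332 both in IDD+HID, and 5 kappa, 2 lambda and 84 both in IDD. Lambda calls were 3.89% in IDD+HTF (1.58 to 7.85), 3.96% in IDD+HID (2.37 to 6.19) and 2.20% in IDD (0.267 to 7.71), and the intervals overlapped. With a call of 10 UMIs and 3 times, the calls were 115 kappa, 8 lambda and 43 both in IDD+HTF, 323 kappa, 22 lambda and 104 both in IDD+HID, and 40 kappa, 3 lambda and 43 both in IDD. Cells with more lambda than kappa UMIs were 10.6%, 8.06% and 11.8% of members.

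Igkc stood at 9732 CPM in B cells of IDD+HTF, 11432 CPM in IDD+HID and 9645 CPM in IDD, and at 18.6, 9.48 and 2.02 CPM in T cells. Iglc2 stood at 1609, 1559 and 2295 CPM in B cells and at 2.87, 1.19 and 2.02 CPM in T cells, and free droplets held 36.2, 69.4 and 18.8 CPM. It was 1.43-fold lower in IDD+HTF than in IDD (1.31 to 1.55) and 1.47-fold lower in IDD+HID than in IDD (1.37 to 1.58). The Iglc genes resemble one another closely, and reads may be split or shared between them, so their values are uncertain one by one.

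Across genes, a gene counted as measured where its pooled share gave at least 20 expected UMIs in the shallower library of a pair. Set against IDD, IDD+HTF had 90 of 3033 measured genes that stood at least 2-fold higher (2.97%) and 45 lower by the same factor (1.48%), with a median log2 ratio of 0.03. In IDD+HID against IDD, 97 of 3184 were higher (3.05%) and 57 lower (1.79%), with a median of 0.14. In IDD+HID against IDD+HTF, 78 of 5011 were higher (1.56%) and 110 lower (2.2%), with a median of 0.13. Scaling by TMM instead of totals moved the median of IDD+HTF against IDD to 0.18 and that of IDD+HID against IDD to 0.29. The counts then were 140 higher and 28 lower, and 159 higher and 45 lower. The first 2 comparisons share the IDD library, which held the fewest B cells.

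For the gene lists a 1.5-fold difference was used. Of the measured genes as a whole, 10.8% lay higher by this factor or more and 7.55% lower in IDD+HTF against IDD, 13.9% higher and 5.31% lower in IDD+HID against IDD, and 10.4% higher and 6.23% lower in IDD+HID against IDD+HTF. Of the members of 28 functional lists taken once each, 15 of 242 were higher and 25 lower in IDD+HTF against IDD, 19 of 235 higher and 34 lower in IDD+HID against IDD, and 13 of 281 higher and 34 lower in IDD+HID against IDD+HTF. Under TMM scaling the first split turned round to 25 higher and 15 lower, the second became 32 higher and 24 lower, and the third 13 higher and 35 lower.

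Heat shock genes had the lowest median log2 ratio of the 28 functional lists in both comparisons of IDD+HID, but not in IDD+HTF against IDD. They encode chaperones that refold proteins and are switched on by heat, oxidants and other protein damage, and also by tissue digestion. In B cells the level was lowest in IDD+HID, intermediate in IDD+HTF and highest in IDD. Hspa1a stood at 1457 CPM in IDD+HTF, 138 CPM in IDD+HID and 3585 CPM in IDD. That was 2.46-fold lower in IDD+HTF than in IDD (interval 2.27 to 2.66), 26.0-fold lower in IDD+HID than in IDD (23.02 to 29.5), and 10.6-fold lower in IDD+HID than in IDD+HTF (9.32 to 12.04). Hspa1b stood at 2412, 233 and 4407 CPM. It was 1.83-fold lower in IDD+HTF than in IDD (1.71 to 1.95) and 18.9-fold lower in IDD+HID than in IDD (17.1 to 20.9). In the 35 B cells of IDD+HTF and 9 of IDD that did not hold both light chains, its log2 ratio for IDD+HTF over IDD was 0.016, so that direction did not hold in this small subset. The genes are near-identical copies, as their promoters above are, so reads may be split between them and their sum is the firmer value.

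The sum of the pair stood at 3869 CPM in IDD+HTF, 371 CPM in IDD+HID and 7991 CPM in IDD. It was 2.07-fold lower in IDD+HTF than in IDD (1.96 to 2.17), 21.5-fold lower in IDD+HID than in IDD (20.0 to 23.3) and 10.4-fold lower in IDD+HID than in IDD+HTF (9.66 to 11.3). The difference was spread over cells and did not come from a few of them. After thinning, 67.0% of B cells in IDD+HTF, 16.6% in IDD+HID and 79.7% in IDD were expected to hold a UMI of the pair. The median cell had 24.8 per 10000 in IDD+HTF, 0 in IDD+HID and 59.8 in IDD. Cells without a UMI of the pair numbered 38 of 180, 326 of 459 and 15 of 93. The free RNA of droplets with at most 100 UMIs did not run in that order, with Hspa1a at 249.5 CPM in IDD+HTF, 249.6 CPM in IDD+HID and 116 CPM in IDD. The 138 CPM in B cells of IDD+HID lay below that free level, and the part of free RNA in it was not tested.

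T cells and plasmacytoid dendritic cells of the same suspensions showed the same order. For IDD+HID against IDD their ratios were smaller than that of the B cells, and for IDD+HTF against IDD that of the plasmacytoid cells was not. In T cells the pair summed to 2247 CPM in IDD+HTF, 1192 CPM in IDD+HID and 2896 CPM in IDD, which was 1.29-fold lower in IDD+HTF than in IDD (1.20 to 1.39) and 2.43-fold lower in IDD+HID than in IDD (2.27 to 2.60). In plasmacytoid dendritic cells, an interferon-producing type, it summed to 1193, 365 and 2565 CPM, 2.15-fold lower in IDD+HTF than in IDD (1.93 to 2.40) and 7.04-fold lower in IDD+HID than in IDD (6.23 to 7.95). The plasmacytoid cells numbered 72 in IDD+HTF, 119 in IDD+HID and 25 in IDD, and 16 of the 25 held a UMI of the pair. The intervals of the 3 cell types for IDD+HID against IDD did not overlap, and this comparison rests on the same 2 mice. These intervals cover the counting of UMIs and not the spread between cells. The handling time of each liver is not in the labels, and its part in the result was not tested.

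Of the 13 heat shock genes, 10 were measured in each comparison. In IDD+HTF against IDD, 3 were lower and 0 higher, with a median log2 ratio of -0.18, and under TMM scaling 2 were lower and 1 higher. In IDD+HID against IDD, 7 were lower and 0 higher, with a median of -1.22, and in IDD+HID against IDD+HTF 5 were lower and 0 higher, with a median of -0.92. Dnajb1, the HSP40 partner of HSP70, stood at 311 CPM in IDD+HTF, 115 CPM in IDD+HID and 441 CPM in IDD, 3.85-fold lower in IDD+HID than in IDD (3.17 to 4.67). Hsp90aa1, the inducible HSP90, stood at 829, 555 and 1323 CPM. Dnaja1, a further HSP40, stood at 605, 252 and 665 CPM, so that IDD+HTF lay close to IDD. Hsp90ab1, the constitutive HSP90, stood at 2018, 1647 and 1603 CPM, and the mitochondrial chaperones Hspd1 and Hspe1 lay close together as well, Hspd1 at 165, 158 and 118 CPM and Hspe1 at 426, 365 and 398 CPM.

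**Figure D3:**
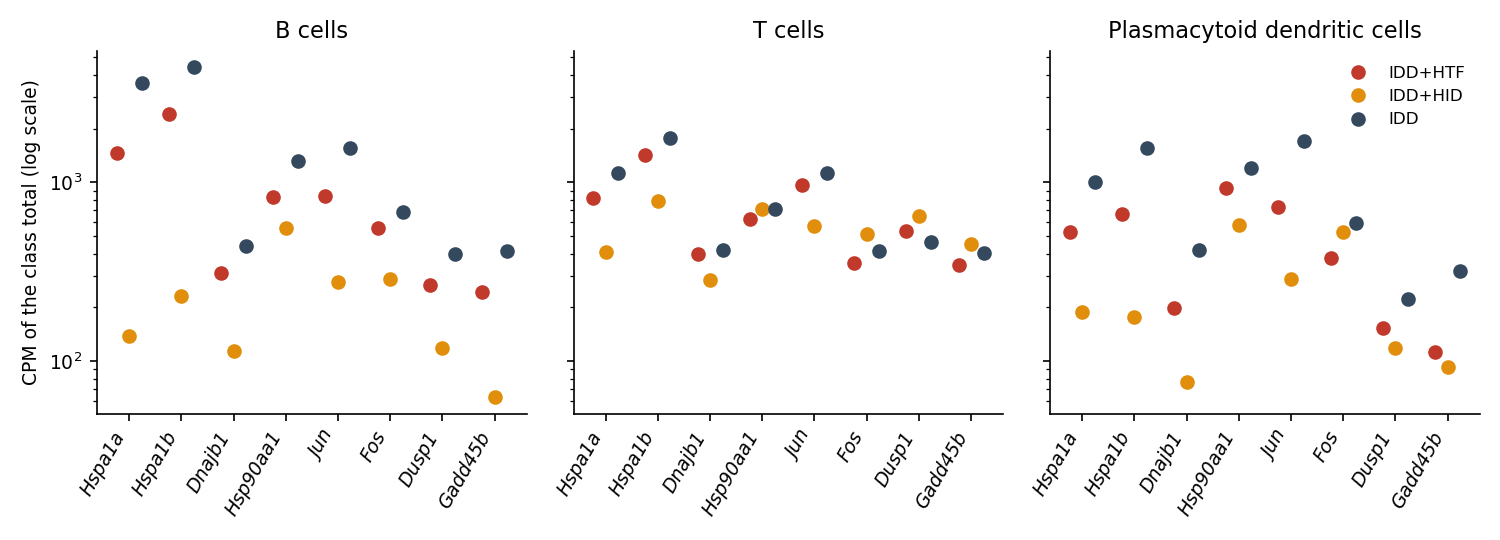
CPM of the class total (log scale, vertical axis) of 8 heat shock and immediate early genes in B cells, T cells and plasmacytoid dendritic cells, with 1 point per library. In B cells the points run over a range from 63.1 to 4407 CPM with IDD+HID lowest for each of the 8 genes, whereas in T cells IDD+HID is highest for Hsp90aa1, Fos, Dusp1 and Gadd45b.

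Immediate early genes, transcription factors and regulators that respond within minutes to signals and to dissociation, showed a like order for some members. Of 23 listed genes, 22 were measured in IDD+HTF against IDD, with 1 higher and 3 lower. In IDD+HID against IDD 21 were measured, with 1 higher and 10 lower, and in IDD+HID against IDD+HTF 22 were measured, with 0 higher and 7 lower. Under TMM scaling the counts were 2 higher and 2 lower, 1 higher and 8 lower, and 0 higher and 7 lower. Jun, a subunit of AP-1, stood at 840 CPM in IDD+HTF, 279 CPM in IDD+HID and 1555 CPM in IDD. It was 1.85-fold lower in IDD+HTF than in IDD (1.66 to 2.07) and 5.57-fold lower in IDD+HID than in IDD (4.99 to 6.23). Fos, its partner, stood at 553, 289 and 682 CPM, and was 2.36-fold lower in IDD+HID than in IDD (2.04 to 2.72). Dusp1, a phosphatase that shuts down MAP kinases, stood at 267, 118 and 400 CPM, and Atf3 at 93.3, 40.0 and 113 CPM. In T cells Jun ran in the same order, at 964, 573 and 1128 CPM, but Fos stood at 353, 512 and 415 CPM and Dusp1 at 537, 646 and 466 CPM, with IDD+HID the highest. Free droplets held 323, 434 and 156 CPM of Dusp1 and 670, 821 and 364 CPM of Fos, which is above the B cells in IDD+HTF and IDD+HID and below them in IDD.

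The list did not move as a block. Junb stood at 2005 CPM in IDD+HTF, 1543 CPM in IDD+HID and 1854 CPM in IDD, Ier2 at 432, 368 and 407 CPM, and Nr4a1, which reports antigen receptor signals, at 520, 401 and 400 CPM. Klf4, a quiescence factor of B cells, went the other way, with 140 CPM in IDD+HTF, 122 CPM in IDD+HID and 57.9 CPM in IDD, 2.42-fold higher in IDD+HTF than in IDD (1.54 to 3.94) and 2.11-fold higher in IDD+HID than in IDD (1.39 to 3.35). Free droplets held 137, 212 and 65.2 CPM of Klf4, with IDD lowest as in the B cells, and the part of free RNA in its ratios was not tested. Jun was higher in cells with a UMI of the HSP70 pair in IDD+HTF and IDD+HID, and nearly equal in IDD, where 15 cells had none. It stood at 940 CPM in cells with a UMI of the pair and 442 CPM in cells without in IDD+HTF, at 478 and 189 CPM in IDD+HID, and at 1575 and 1458 CPM in IDD.

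Further genes followed the same order. Gadd45b stood at 244 CPM in IDD+HTF, 63.1 CPM in IDD+HID and 412 CPM in IDD, 6.54-fold lower in IDD+HID than in IDD (5.20 to 8.22). Pmaip1, the pro-apoptotic protein NOXA, stood at 101, 29.3 and 181 CPM, 6.17-fold lower in IDD+HID than in IDD (4.37 to 8.72). Id3, which restrains E proteins in B cells, stood at 152, 78.2 and 280 CPM, and Sox4 at 82.6, 38.6 and 178 CPM. Traf1, a target of NF-kB, stood at 88.0, 41.3 and 121 CPM, and Irf1, an interferon-induced factor, at 111, 65.7 and 166 CPM. In each of these 6 genes IDD+HID was lowest and IDD highest. They were named for their ratios, so the shared order follows in part from that choice. The lists of Traf1 and Irf1 did not move as a block. Of the NF-kB list, 3 of 10 were lower in IDD+HID against IDD and 0 of 10 in IDD+HTF against IDD. Of the interferon list, 1 of 9 was lower in IDD+HID against IDD. In IDD+HTF against IDD, 2 of 10 were higher and 2 lower. For Id3 the free droplets held 306, 410 and 147 CPM, above the B cells in IDD+HTF and IDD+HID.

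Ccr7, Gpr183 and Cxcr5, receptors that guide follicular B cells, were higher in both iron-treated libraries, and other genes of follicular cells were not as a group. Of 10 listed follicular genes, 3 were higher and 1 lower in each comparison with IDD, with median log2 ratios of 0.06 and 0.07, and 0 were higher or lower in IDD+HID against IDD+HTF. Ccr7, the receptor for lymph node entry (chromosome 11), stood at 789 CPM in IDD+HTF, 962 CPM in IDD+HID and 465 CPM in IDD. It was 1.70-fold higher in IDD+HTF than in IDD (1.44 to 2.01) and 2.07-fold higher in IDD+HID than in IDD (1.78 to 2.41). Gpr183, the oxysterol receptor EBI2 that positions B cells in follicles (chromosome 14), stood at 769, 668 and 342 CPM, 2.25-fold higher in IDD+HTF than in IDD (1.87 to 2.72) and 1.95-fold higher in IDD+HID than in IDD (1.64 to 2.33). Cxcr5, the receptor for the follicle chemokine CXCL13, stood at 137, 175 and 86.8 CPM, 1.58-fold higher in IDD+HTF than in IDD (1.07 to 2.38) and 2.02-fold higher in IDD+HID than in IDD (1.43 to 2.92). Free droplets held 17.4, 35.1 and 7.69 CPM of Ccr7, far below the B cells.

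Complement receptor 2 ran against them. Cr2, the receptor CD21 that binds antigen tagged with complement and is high on marginal zone B cells, stood at 120 CPM in IDD+HTF, 111 CPM in IDD+HID and 260 CPM in IDD. It was 2.17-fold lower in IDD+HTF than in IDD (1.63 to 2.90) and 2.34-fold lower in IDD+HID than in IDD (1.85 to 2.94), and after thinning 9.98%, 9.99% and 18.9% of B cells were expected to hold a UMI. Other marginal zone genes did not share that order. Plac8 stood at 669 CPM in IDD+HTF, 630 CPM in IDD+HID and 624 CPM in IDD, and Cd1d1 at 25.3, 28.0 and 24.1 CPM.

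The rest of the trafficking genes lay closer together. Of 20 listed genes for homing and retention, 15 were measured in IDD+HTF against IDD, with 4 higher and 0 lower, 14 in IDD+HID against IDD, with 3 higher and 2 lower, and 17 in IDD+HID against IDD+HTF, with 0 higher and 2 lower. Cxcr4, which holds cells in bone marrow and in the dark zone of follicles, stood at 422 CPM in IDD+HTF, 449 CPM in IDD+HID and 347 CPM in IDD. S1pr1, the receptor for exit from lymphoid tissue, stood at 424, 359 and 410 CPM, and Klf2, which keeps B cells quiescent and recirculating, at 1467, 1371 and 1405 CPM. Selplg and Rgs2 were the 2 lower genes of IDD+HID against IDD, at 55.1 against 84.4 CPM and 167 against 258 CPM, and under TMM scaling neither reached 1.5-fold.

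**Figure D4:**
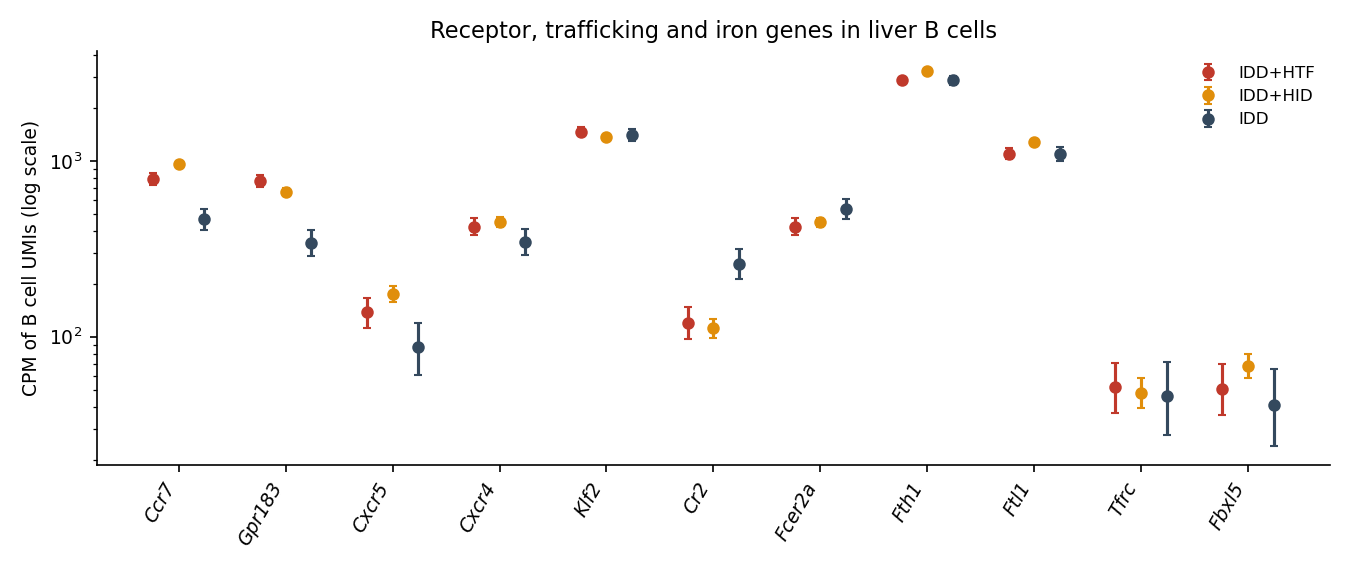
CPM of B cell UMIs (log scale, vertical axis) of receptor, trafficking and iron genes (horizontal axis) in the 3 libraries; points are the value and whiskers the exact Poisson 95% interval. Ccr7, Gpr183 and Cxcr5 lie lowest in IDD (465, 342 and 86.8 CPM), Cr2 lies highest in IDD (260 CPM), and the 3 points of Fth1, Ftl1 and Tfrc lie close together.

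Scaled by totals, genes of the antigen receptor pathway were past 1.5-fold about as often as all measured genes, or less often, in the comparisons with IDD+HID. Of 23 listed signalling genes, 3 of 21 measured were higher and 0 lower in IDD+HTF against IDD, 3 of 22 higher and 0 lower in IDD+HID against IDD, and 1 of 23 higher and 0 lower in IDD+HID against IDD+HTF, with median log2 ratios of 0.08, 0.36 and 0.15, against 0.03, 0.14 and 0.13 for all measured genes. Under TMM scaling 4 of 21, 8 of 22 and 1 of 23 signalling genes were higher and 0 lower, with a median of 0.50 in IDD+HID against IDD. The share of all measured genes past 1.5-fold was not counted under that scaling. Of the 14 genes of the receptor and its co-receptors, 11 were measured, with 0 higher in the 3 comparisons and 2, 1 and 0 lower. Under TMM scaling 1, 1 and 0 of them were higher and 2, 1 and 0 lower. Plcg2, the phospholipase downstream of the receptor, stood at 62.6 CPM in IDD+HTF, 97.7 CPM in IDD+HID and 55.4 CPM in IDD, 1.76-fold higher in IDD+HID than in IDD (1.14 to 2.84). Btk, its activating kinase, stood at 127, 179 and 113 CPM, 1.58-fold higher in IDD+HID than in IDD (1.17 to 2.19). Inpp5d, the inhibitory phosphatase SHIP1, stood at 180, 185 and 116 CPM. Dapp1, an adaptor of the same pathway, stood at 117, 79.9 and 62.7 CPM, 1.87-fold higher in IDD+HTF than in IDD (1.20 to 3.02).

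Antigen presentation and survival receptors lay closer together. The 13 MHC class II genes summed to 24277 CPM in IDD+HTF, 30944 CPM in IDD+HID and 26442 CPM in IDD. Cd74, the invariant chain, stood at 12092, 15904 and 13059 CPM, and H2-Ab1, a class II chain, at 2968, 3699 and 3387 CPM. Ciita, the master regulator of class II, stood at 104, 166 and 149 CPM, 1.59-fold higher in IDD+HID than in IDD+HTF (1.25 to 2.06). H2-Q7, a class I gene, stood at 311, 254 and 542 CPM, 1.75-fold lower in IDD+HTF than in IDD (1.45 to 2.11) and 2.14-fold lower in IDD+HID than in IDD (1.82 to 2.50). It belongs to a family of near-identical class I genes, so reads may be shared. Tnfrsf13c, the BAFF receptor on which naive B cells depend, stood at 327 CPM in IDD+HTF, 318 CPM in IDD+HID and 306 CPM in IDD. Icosl, a costimulatory ligand for T cells, stood at 85.3, 53.7 and 111 CPM, 2.06-fold lower in IDD+HID than in IDD (1.44 to 2.92), and Cd69, an early activation marker, at 432, 312 and 364 CPM.

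The ferritin RNAs of B cells differed little, although the libraries came from mice with different iron supply. Against IDD, most of the 35 listed iron genes had too few UMIs to be measured. Fth1, the ferritin heavy chain with the element shown above, stood at 2867 CPM in IDD+HTF, 3231 CPM in IDD+HID and 2866 CPM in IDD, a ratio of 1.00 for IDD+HTF over IDD (0.931 to 1.07) and 1.13 for IDD+HID over IDD (1.06 to 1.20). Ftl1, the light chain, stood at 1101, 1273 and 1099 CPM, with ratios of 1.00 (0.892 to 1.13) and 1.16 (1.05 to 1.28). Tfrc, the transferrin receptor, had 39 UMIs in IDD+HTF, 108 in IDD+HID and 19 in IDD, which is 52.0, 48.0 and 45.8 CPM. Its ratio was 1.13 for IDD+HTF over IDD, with an interval of 0.640 to 2.08, and 1.05 for IDD+HID over IDD, with an interval of 0.639 to 1.81 and fewer than 20 expected UMIs. A difference of Tfrc within that range was not detectable at this depth.

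Of 35 listed iron genes, 9 were measured in IDD+HTF against IDD, with 0 higher and 1 lower (0 and 0 under TMM scaling), 11 in IDD+HID against IDD, with 2 higher and 0 lower, and 20 in IDD+HID against IDD+HTF, with 4 higher and 0 lower. The 4 were Slc25a28, Iscu, Glrx5 and Hamp, of which Hamp lay below its level in free droplets. Of all measured genes, 10.8%, 13.9% and 10.4% were at least 1.5-fold higher in these comparisons, and 7.55%, 5.31% and 6.23% lower. Fbxl5, the iron-sensing part of the ligase that degrades IRP2, stood at 50.6 CPM in IDD+HTF, 68.4 CPM in IDD+HID and 41.0 CPM in IDD, 1.67-fold higher in IDD+HID than in IDD (1.01 to 2.94). Herc2, a ubiquitin ligase, stood at 52.0, 64.4 and 36.2 CPM, 1.78-fold higher in IDD+HID than in IDD (1.04 to 3.26). Iscu, the scaffold of iron-sulfur clusters, stood at 45.3, 73.3 and 69.9 CPM, 1.62-fold higher in IDD+HID than in IDD+HTF (1.11 to 2.41), and Slc25a28, a mitochondrial iron carrier, at 15.99, 40.4 and 33.7 CPM. Glrx5, of the same cluster pathway, stood at 34.7, 52.4 and 48.2 CPM.

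The exporter and the stress enzymes were at the limit of detection. Slc40a1, the iron exporter ferroportin, had 9 UMIs in IDD+HTF, 28 in IDD+HID and 0 in IDD, and Hmox1, which breaks down heme, had 6, 9 and 0 UMIs. Both lay below their level in free droplets, where Slc40a1 stood at 234, 266 and 104 CPM and Hmox1 at 105, 82.4 and 43.5 CPM. The part of free RNA in their counts was not tested. Hamp, the hepatocyte hormone hepcidin, had 14, 87 and 2 UMIs and also lay below its level in free droplets, at 179, 412 and 73.7 CPM there. Nqo1, a classic NRF2 target, had 2, 1 and 0 UMIs.

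Nfe2l2, the gene of the transcription factor NRF2 itself, stood at 152 CPM in IDD+HTF, 115 CPM in IDD+HID and 57.9 CPM in IDD. It was 2.63-fold higher in IDD+HTF than in IDD (1.68 to 4.27) and 1.99-fold higher in IDD+HID than in IDD (1.31 to 3.16), from 114, 259 and 24 UMIs. Of the 25 listed NRF2 genes, 10 were measured in each comparison with IDD. Besides Nfe2l2, 0 were higher in either, while Gpx4 and Tkt were lower in IDD+HTF against IDD and Tkt in IDD+HID against IDD. Under TMM scaling 2 were higher and 1 lower in the first comparison, and 2 higher and 0 lower in the second. Gpx4, which removes lipid peroxides, stood at 50.6 CPM in IDD+HTF, 87.9 CPM in IDD+HID and 104 CPM in IDD.

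RNA of other liver cells was present in the B cells and differed between the libraries. The 20 hepatocyte genes summed to 5034 CPM in B cells of IDD+HTF, 7022 CPM in IDD+HID and 3303 CPM in IDD. In free droplets they summed to 61581, 62350 and 31988 CPM, so the sums in B cells were 8.17%, 11.3% and 10.3% of those in free droplets. T cells held 4813, 4242 and 564 CPM of the same genes. Of 18 measured, 11 were at least 1.5-fold higher and 0 lower in IDD+HTF against IDD, 15 higher and 1 lower in IDD+HID against IDD, and 6 higher and 1 lower in IDD+HID against IDD+HTF. Serpina3k, a plasma protease inhibitor, stood at 337 CPM in IDD+HTF, 373 CPM in IDD+HID and 74.7 CPM in IDD, 4.51-fold higher in IDD+HTF than in IDD (3.1 to 6.78) and 5.00-fold higher in IDD+HID than in IDD (3.49 to 7.40). It stood at 330, 258 and 18.1 CPM in T cells and at 4354, 3701 and 1294 CPM in free droplets.

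The same held for the other liver-secreted genes among those furthest apart. Alb, albumin, stood at 577 CPM in B cells of IDD+HTF, 1265 CPM in IDD+HID and 393 CPM in IDD, Apob at 268, 239 and 43.4 CPM, Fgb at 139, 215 and 45.8 CPM, C3 at 111, 152 and 31.3 CPM and Apoe at 1086, 1790 and 622 CPM. Of these, Apoe had 531 of its 4031 UMIs in IDD+HID in 1 cell. The 14 genes of sinusoidal endothelium summed to 1052, 642 and 639 CPM in B cells and to 3458, 4807 and 1512 CPM in free droplets, and 1 cell gave 368 of the 789 UMIs in IDD+HTF, 359 of the 1445 in IDD+HID and 110 of the 265 in IDD. The Kupffer cell list of 13 genes summed to 133, 192 and 176 CPM in B cells and to 3552, 3908 and 1416 CPM in free droplets. Kupffer and T cell genes in part belong to the rule and were held down by it.

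**Figure D5:**
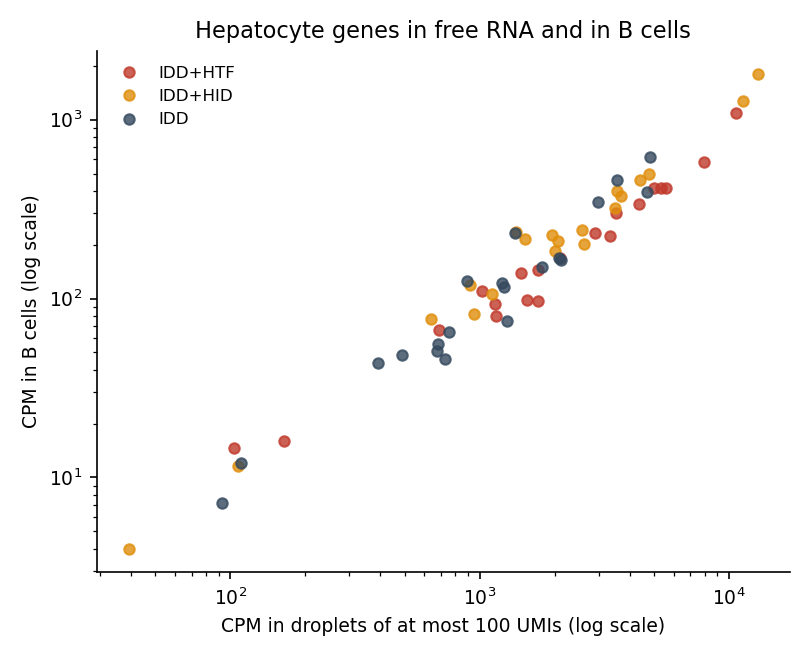
CPM of the hepatocyte genes in B cells (vertical axis, log scale) against CPM in droplets of at most 100 UMIs (horizontal axis, log scale), with 1 point per gene and library. The points of the 3 libraries lie along 1 band, and summed over the list the B cells held 8.17% of the free droplet level in IDD+HTF, 11.3% in IDD+HID and 10.3% in IDD.

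Single cells set some of the largest ratios. S100a8 and S100a9, neutrophil genes, had 200 and 166 UMIs in IDD+HTF, each from 1 cell, 4 and 7 UMIs in IDD+HID, and 0 in IDD. Hist1h2ap, a histone of dividing cells, had 180 UMIs in IDD+HTF, of which 151 came from 1 cell, 8 in IDD+HID and 0 in IDD. Cxcl9 had 67, 16 and 1 UMIs, with 65 of the 67 in 1 cell. Ccl4, a chemokine, had 8, 72 and 141 UMIs, and 102 of the 141 came from 1 cell of IDD. Lyz2, a macrophage and neutrophil gene, had 19, 86 and 58 UMIs, and the 58 came from 1 cell of IDD. S100a6 had 58, 203 and 103 UMIs, with 64 of the 103 in 1 cell of IDD. The size of the differences in these genes thus rests in large part on those cells. For Hist1h2ap, Ccl4 and S100a6 the rest of the UMIs came from other cells, and ratios without the top cell are not given here.

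Ribosomal protein genes differed one by one more than in sum. Of 83 ribosomal protein genes, 80 were measured, with 11 at least 1.5-fold higher and 23 lower in IDD+HTF against IDD, 2 higher and 7 lower in IDD+HID against IDD, and 13 higher and 15 lower in IDD+HID against IDD+HTF. Their sum lay close together, at 169428 CPM in IDD+HTF, 158918 CPM in IDD+HID and 169397 CPM in IDD. Rps13 stood at 339, 387 and 863 CPM while its processed copy Rps13-ps1 stood at 185, 369 and 0 CPM, at least 25.6-fold higher in IDD+HTF and at least 51.0-fold higher in IDD+HID than in IDD against a floor of 3 counts. Rpl30 stood at 2060, 1885 and 610 CPM. T cells gave the same order of the libraries, with Rpl30 at 2241, 1958 and 578 CPM. These genes share sequence with many copies, and their single values are uncertain.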

How the data were processed

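Gene expression was measured by 10x Genomics 3′ single-cell RNA-seq in 3 liver libraries, 1 mouse per group. The deposited files hold counts of UMIs per barcode and gene, whole numbers without normalization and with empty barcodes kept. The submitters' processing notes name GRCm38 and Seurat 4; which aligner and which counting tool were used is not given in the sources used here. Among 55421 gene identifiers, 55154 had a symbol and 54587 matched GENCODE M21 with their version. No column of other samples was present (0).

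The members and gene lists were chosen with earlier results of these data known, and no list is independent evidence. A barcode counted as a cell from 1000 UMIs and 300 detected genes upward, with mitochondrial UMIs no more than 20%. No doublet caller was run; the limits on other types bar some mixed cells and doublets of B cells with each other remain. Plasmacytoid dendritic cells needed at least 4 UMIs and 5 per 10000 of Siglech and Ccr9. Counts were summed over the members of a library and scaled to CPM. Ratios carry exact conditional binomial, CPM exact Poisson and shares Clopper-Pearson intervals at 95% (numpy 2.4.6, scipy 1.17.1, pandas 2.3.3, Python 3.11.15). The ratio intervals were tested on simulated independent Poisson counts. That test could not cover UMIs that cluster in single cells, because the simulation held no cells. Since PCR copies were collapsed by UMI, the intervals cover counting of molecules only and say nothing of differences between mice. TMM factors came from edgeR 4.0.16 in R 4.3.3, used for scaling only, and figures from matplotlib 3.10.9.

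Genes were named by a rule, with a few of the genes it takes not reported here: 20 genes whatever their values, the 10 highest and 10 lowest in each comparison by the interval bound nearest to no difference (leaving out mitochondrial, ribosomal RNA and unnamed genes), and the 2 highest and 2 lowest of each list beyond 1.5-fold. Further list members and single cells of note were chosen after their values were seen. Alternatives covered cell limits, the member rule, scaling, the filter on low counts, the weight of cells and light chain calls; 3 more were chosen after seeing the data. The 28 functional and 9 other-cell lists were described by counts and medians.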

Additional observations from a re-analysis of the deposited data

Results flagged for a closer look

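Each library held 1 barcode outside the B cells with a very large number of UMIs of Igha, the IgA heavy chain, which no comparison above uses. It had 4556 Igha UMIs in IDD+HTF, 7331 in IDD+HID and 2455 in IDD, which was 99.1%, 99.5% and 99.8% of the Igha UMIs in cells. The next cell had 15, 2 and 1. These barcodes held 50680, 51287 and 35818 UMIs in all, 14144, 23201 and 7297 of Igkc and 1482, 2666 and 1185 of Jchain, and 9, 3 and 5 of Sdc1, the plasma cell surface protein CD138. The genes of the B cell rule stood at 8.09, 5.46 and 7.54 per 10000 in them, under the limit of 10, so the rule left them out; those of IDD+HTF and IDD are the cells nearest below it. Free droplets held 19.7, 47.7 and 15.9 CPM of Igha.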

How the results depend on the processing

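No paired analysis was possible because each group holds 1 library, and for the same reason no replicate could be left out. Leaving out B cells that hold both light chains kept 35 cells in IDD+HTF, 127 in IDD+HID and 9 in IDD, and fewer genes were measured; the counts of genes at least 2-fold higher and lower then were 29 and 11 in IDD+HTF against IDD, 24 and 5 in IDD+HID against IDD, and 40 and 42 in IDD+HID against IDD+HTF. List members at least 1.5-fold apart were 8 higher and 11 lower in the first comparison, 8 lower in the second and 14 lower in the third. Hspa1b then had a log2 ratio of 0.016 for IDD+HTF over IDD and turned round, and the cause was not tested. TMM factors gave 140 higher and 28 lower in IDD+HTF against IDD and 159 higher in IDD+HID against IDD, with 25 list members higher and 15 lower in IDD+HTF against IDD and 32 higher in IDD+HID against IDD. Median-of-ratios factors gave 25 list members higher and 16 lower in IDD+HTF against IDD and 8 higher in IDD+HID against IDD+HTF.

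With 10 expected UMIs the counts were 235 higher and 167 lower in IDD+HTF against IDD, 259 and 119 in IDD+HID against IDD, and 239 and 208 in IDD+HID against IDD+HTF. With 50 they were 29 and 20, 28 and 23, and 9 and 57, and with no filter beyond 1 UMI in each library 1299 and 2177, 1101 and 3401, and 1239 and 2792, since more or fewer genes were measured. Without genes higher in free droplets than in B cells, a choice made after seeing the data, 51 were higher in IDD+HTF against IDD, 62 higher and 29 lower in IDD+HID against IDD, with 21 list members lower, and 43 lower in IDD+HID against IDD+HTF, with 19 list members lower. Leaving out the highest cells of each gene (2 in IDD+HTF, 5 in IDD+HID and 1 in IDD), also chosen after seeing the data, gave 125 higher in IDD+HID against IDD+HTF. Lyz2 then turned round, to a log2 bound of 0.37 for IDD+HTF over IDD and 0.43 for IDD+HID over IDD, since its UMIs in IDD came from 1 cell.

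The B cell share was 6.76% in IDD+HTF and 8.51% in IDD with a higher minimum of UMIs per cell, and in IDD+HID 11.4% with at most 10% mitochondrial UMIs and 10.7% without cells above 100 per 10000 of other cells' genes; the order of the libraries held in each. For the named genes, 4383 of 4585 values over 15 settings lay within the interval of the value reported and 199 lay outside it. The other 3 (the Hspa1b and Lyz2 values above) turned round from a value past 1.5-fold. Settings that only changed which genes were kept could not move a value. These were the filters on low counts, on free droplet genes and on ribosomal protein genes and pseudogenes, so the count of 4383 overstates the agreement.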

Other observations

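A few B cells carried dividing cell genes. Mki67, a marker of the cell cycle, had 23 UMIs in 2.22% of B cells of IDD+HTF, 4 UMIs in 0.871% of IDD+HID and 5 UMIs in 2.15% of IDD, and 18 of the 23 came from 1 cell. Hmgb2, a chromatin protein of dividing cells, stood at 357 CPM in IDD+HTF, 182 CPM in IDD+HID and 207 CPM in IDD, and 100 of its 268 UMIs in IDD+HTF came from 1 cell.

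Ddit4, an inhibitor of mTORC1 that stress induces, stood at 46.6 CPM in IDD+HTF, 12.4 CPM in IDD+HID and 130 CPM in IDD, from 35, 28 and 54 UMIs. Gadd45g stood at 108, 15.5 and 149 CPM in the same order. Iglv3, the most frequent lambda variable gene, took 88.0%, 75.5% and 91.7% of the 50, 143 and 36 lambda variable UMIs.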
